A study of Mus musculus with 14 samples.

Results

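Costimulatory ligands and receptors were followed by gene name across the cells of lymphoid tumors. They comprised 10 genes out of 32285 counted, and all 10 were present in each of the 7 RNA matrices: the B7 ligands Cd80 and Cd86, their T cell receptors Cd28 and Ctla4, the ligands Icosl and Tnfsf4, the receptor Tnfrsf4 (OX40), the PD-1 ligands Cd274 (PD-L1) and Pdcd1lg2 (PD-L2), and the receptor Cd40. White nodules came from 7 cKO mice, which carry Eif3e fl/fl alleles and Cγ1Cre, a Cre expressed from the Ighg1 locus in activated B cells, on a C57BL/6J background. The RNA of single cells was counted in all 7 mice, and receptor sequences were read as well, those of B cells (BCR) in 5 mice and those of T cells (TCR) in 2. The study asked which costimulatory and adhesion molecules Eif3e-deficient B cells carry in their interactions with T cells, using B cells activated in culture. In tumors, it reported that B and CD4+ T cells lacked the Cre reporter YFP and had normal eIF3e protein. It proposes that eIF3e-sufficient lymphocytes became malignant. By that account, levels in the B clones here are not those of Eif3e-deficient B cells.

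In the BCR mice the nodules came from liver (mouse 27), lung (mouse 29), spleen (mouse 31), thymus (mouse 33), and lung with thymus (mouse 34), at ages of 12, 12, 13, 16 and 9 mo. In the TCR mice they came from liver (mouse 30, 14 mo) and spleen (mouse 32, 12 mo). Mice 29, 31, 32 and 34 also carried the Rosa26-YFP reporter, which was not listed for mice 27, 30 and 33. The tumor of mouse 27 was a secondary one in a Rag2-/- recipient, a host without B and T cells of its own. Mouse 34 was a bone marrow chimera of JHT and cKO marrow, and since JHT mice make no B cells, its B cells are those of cKO donors. There was 1 RNA library per mouse and none of a control mouse, so site, age, reporter and mouse cannot be told apart.

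T cells need a signal from their antigen receptor and a costimulatory signal to become activated. CD80 and CD86 on antigen-presenting cells, B cells among them, deliver the costimulatory signal through CD28, and CTLA-4 binds the same ligands with higher affinity and restrains the response. ICOSL and OX40L (encoded by Tnfsf4) sustain helper T cells through ICOS and OX40, CD40 receives T cell help through CD40L, and PD-L1 and PD-L2 dampen T cells through PD-1.

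Cells were grouped into the dominant B or T cell clone of each nodule, from the V(D)J contigs, and into populations named from marker genes after clustering without the genes described here. The B clones held 323 to 3974 cells per mouse, with median depths of 9367 to 13763 UMIs, and the T clones held 2107 cells in mouse 30 and 4868 in mouse 32, with medians of 1992 and 3805. Bystander T cells, that is, T cells outside the clone, numbered 336 to 4684 per mouse, with medians of 1167 to 3453. In the TCR mice they were T cells with another TCR, whereas in the BCR mice their receptors were not read. Myeloid cells numbered 112 to 2863 per mouse and were split into macrophage/monocyte, dendritic and neutrophil cells. Levels are given as CPM, the UMIs of a gene scaled to all UMIs summed over the cells of a population in a mouse.

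The clones fitted their labels. The 7 B cell markers summed to 1663 to 3508 CPM in B clones and 12.0 to 98.3 CPM in T clones, and the 11 T cell markers to 11.1 to 71.8 and 2514 to 3808 CPM. Neutrophil markers reached 1059 to 2770 CPM in the T clones and 65540 to 124896 CPM in neutrophils, and their part in the T clone values was not tested. Dendritic cells were a single cluster in which 8 of 12 dendritic and 8 of 12 macrophage/monocyte markers counted, so that name rests on a tie. Eif3e transcripts, which check nothing here because it is not known whether the counted end lies in the deleted part, were at 142 to 243 CPM in the clones, 116 to 184 CPM in bystander T cells and 55.6 to 164 CPM in macrophage/monocyte cells. Libraries held 19264039 to 123456962 UMIs, and any pair of libraries shared 96 to 286 cell barcodes.

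Of the 10 genes, 6 had a promoter in the RefSeq table of build GRCm38.p6 (Cd80, Ctla4, Icosl, Tnfrsf4, Cd274 and Pdcd1lg2), whereas Cd86, Cd28, Cd40 and Tnfsf4 had none. Several of the genes are close neighbors in that build. Cd28 (chr1:60746388-60773359), Ctla4 (chr1:60909025-60915832) and Icos (chr1:60960773-61000322) follow each other on chromosome 1, Cd274 (chr19:29362107-29388095) lies beside Pdcd1lg2 (chr19:29410919-29472927), and Tnfrsf4 (chr4:156013595-156016613) lies beside Tnfrsf18. Cd86 (chr16:36568956-36666158) and Cd80 (chr16:38457430-38495958) share chromosome 16. Tnfsf4 lies at chr1:161395438-161418206, Cd40 at chr2:165055614-165071654 and Icosl at chr10:78069368-78079525. The promoters of 3 genes are shown because their levels part the cell types in different ways below: Cd80, seen in B, T and myeloid cells alike, Pdcd1lg2, seen in T cells of clones and bystanders but little in B clones, and Ctla4, seen mainly in T cells. All lie on the + strand, from before to just after the start of a RefSeq transcript, 5′ to 3′. Capitals mark matches on either strand to an NF-kB pattern, GGG and CC with any 5 bases between them, in Cd80 (chr16:38458683-38458982) and Pdcd1lg2 (chr19:29410669-29410968), and to the NFAT core GGAAAA on either strand in Ctla4 (chr1:60908775-60909074).
Cd80: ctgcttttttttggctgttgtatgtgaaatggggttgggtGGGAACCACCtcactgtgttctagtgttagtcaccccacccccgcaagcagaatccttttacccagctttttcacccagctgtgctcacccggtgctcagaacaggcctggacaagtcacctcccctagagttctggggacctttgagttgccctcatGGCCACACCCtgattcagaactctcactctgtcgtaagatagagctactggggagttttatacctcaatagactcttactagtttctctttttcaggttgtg
Pdcd1lg2: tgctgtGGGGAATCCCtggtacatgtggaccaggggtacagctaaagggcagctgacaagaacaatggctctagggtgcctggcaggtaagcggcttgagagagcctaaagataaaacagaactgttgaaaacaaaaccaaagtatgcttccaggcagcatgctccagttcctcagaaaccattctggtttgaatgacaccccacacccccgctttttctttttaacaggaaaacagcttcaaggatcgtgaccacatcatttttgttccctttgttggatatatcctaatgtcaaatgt
Ctla4: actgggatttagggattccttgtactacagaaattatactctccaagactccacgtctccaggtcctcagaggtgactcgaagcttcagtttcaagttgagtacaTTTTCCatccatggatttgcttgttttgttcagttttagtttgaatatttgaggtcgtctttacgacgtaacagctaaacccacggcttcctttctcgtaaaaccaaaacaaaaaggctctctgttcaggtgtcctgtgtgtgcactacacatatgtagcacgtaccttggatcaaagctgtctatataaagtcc
The NF-kB pattern occurred in 50.8% of 32851 mouse promoters of the same length and in 3 of the 6 (Cd80, Icosl and Pdcd1lg2), and the marked run of Pdcd1lg2 holds overlapping matches on both strands. The NFAT core occurred in 23.4% of promoters and in 2 of the 6, Ctla4 and Pdcd1lg2, the latter unmarked. These are matches of letters, not sites of binding.

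Most of the 10 genes differed between B, T and myeloid cells, and with the settings used throughout edgeR called none between a clone and the other cells of its own lineage. Differences between populations were tested on UMIs summed per mouse with edgeR's quasi-likelihood test, with the mouse as a block where both populations came from the same nodules, and with Benjamini-Hochberg adjustment over all genes tested. B clones against bystander T cells of 5 mice gave 3 of 10 genes higher, where 12.3% of all tested genes were higher, and 5 lower, where 15.0% were lower. Of all genes, 27.3% were called in either direction. Myeloid cells against B clones gave 3 of 9 tested genes higher (20.8% of all genes) and 1 lower (23.9%), with 44.6% called in all. Myeloid cells against bystander T cells of 7 mice gave 2 of 8 higher (19.4%) and 3 lower (19.2%), with 38.6% called in all. B clones against T clones, 5 mice against 2, gave 1 of 10 higher (2.05%) and 3 lower (4.69%), where 6.74% of all genes were called in either direction. T clones against bystander T cells, with 2 mice, gave 0 of 8 tested genes, and 0.125% of all genes passed. At an unadjusted p under 0.05 this comparison had 906 of 11218 genes, and DESeq2 called 152 genes but none of these 8.

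**Figure D1:**
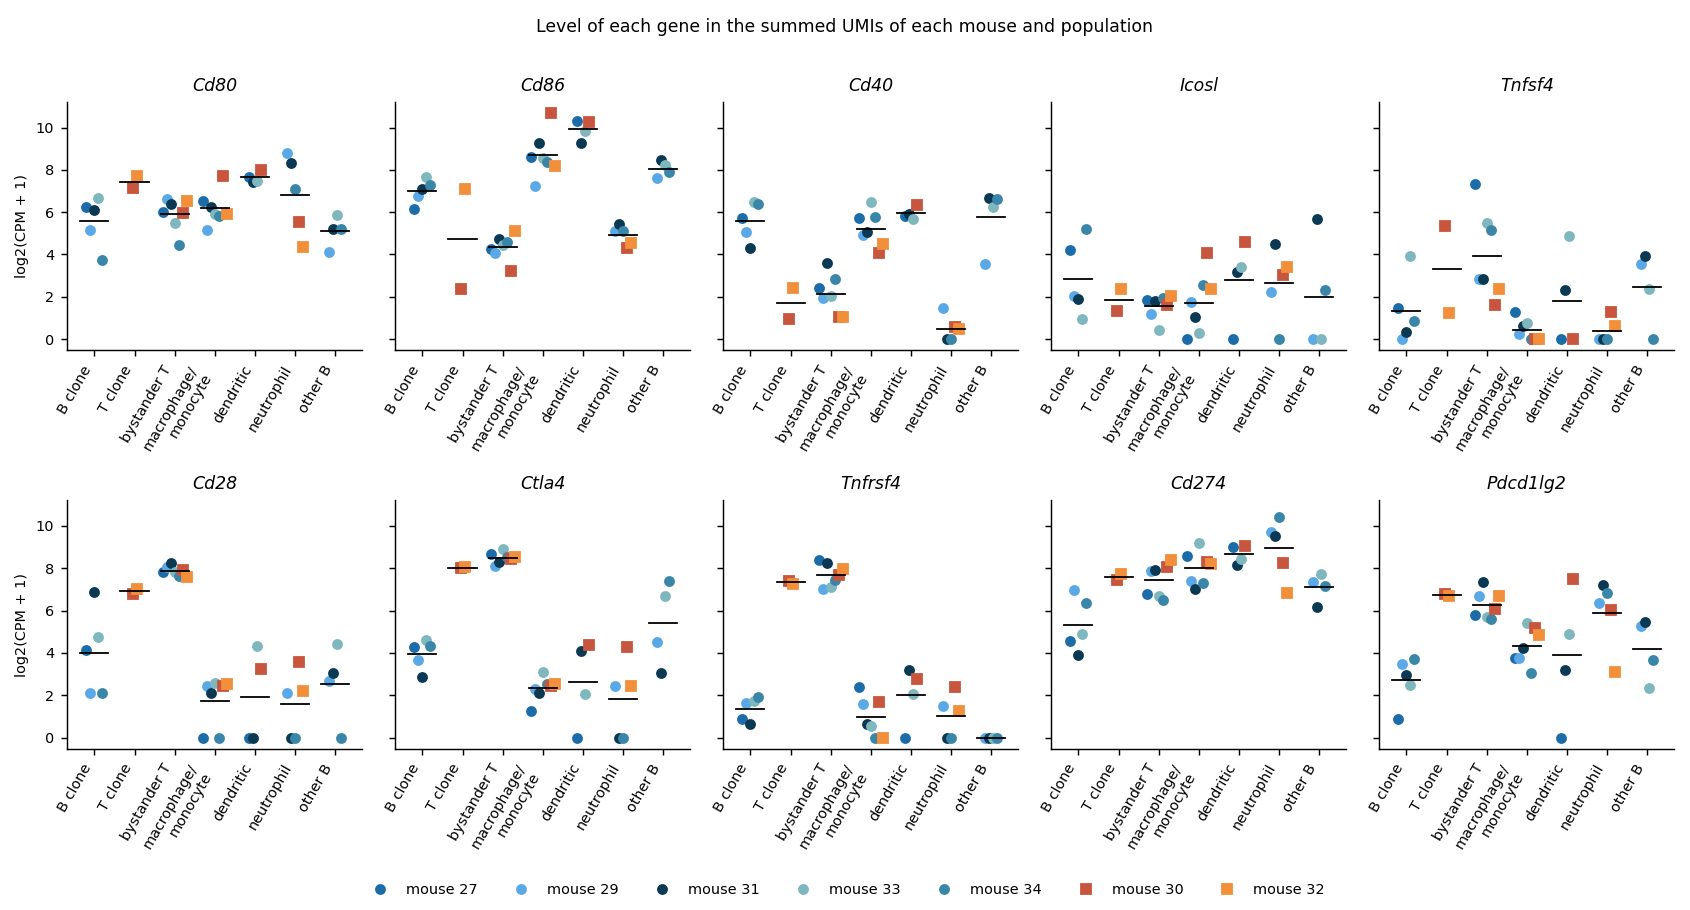
Level of each of the 10 genes in each mouse and population, as log2(CPM + 1) on the vertical axis; circles are BCR mice, squares are TCR mice and bars are means of the log2 values over mice. Cd28, Ctla4 and Tnfrsf4 are high in bystander T cells and T clones, Cd40 is high in B clones, macrophage/monocyte, dendritic and other B cells, and Cd80 is found in every population.

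**Figure D2:**
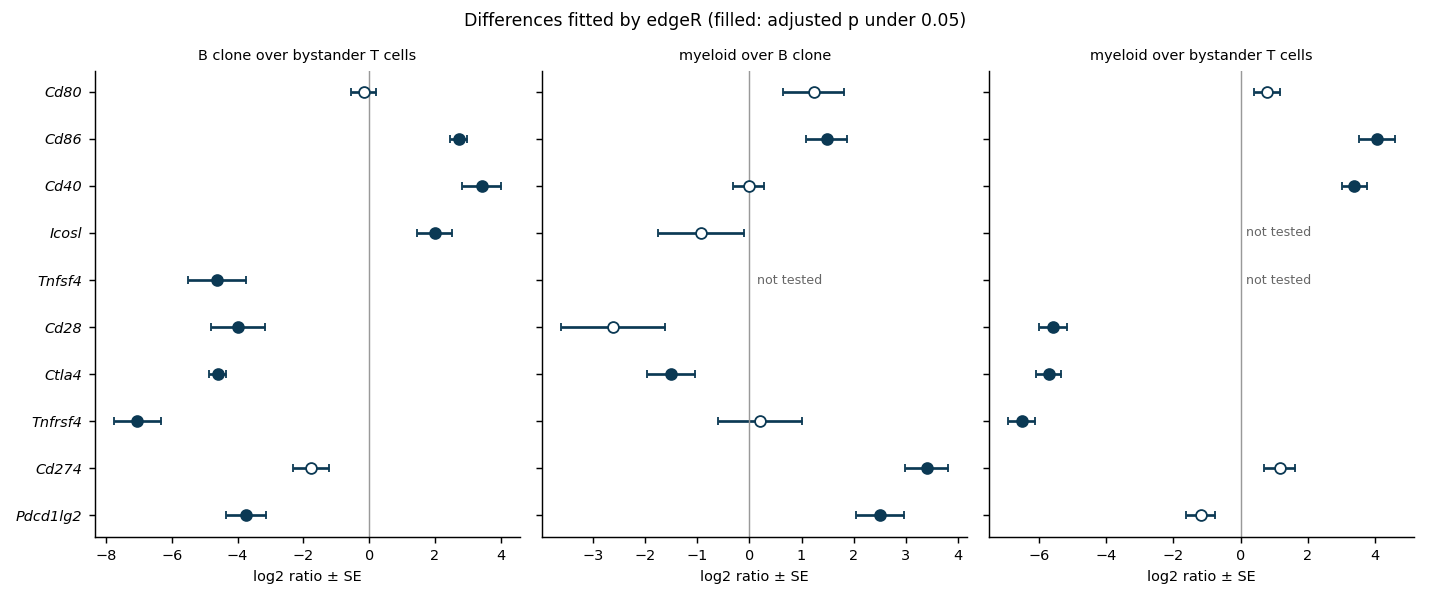
Log2 ratios (horizontal axis) with standard errors from edgeR for the 10 genes in the 3 comparisons within nodules; filled points have an adjusted p under 0.05 and genes left out by the filter on low counts are marked. Cd86 and Cd40 lie to the right in B clones and in myeloid cells when set against bystander T cells, and Cd28, Ctla4 and Tnfrsf4 lie to the left.

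Cd86, the B7 ligand that resting antigen-presenting cells also carry, was a gene of myeloid cells, B cells and 1 of the 2 T clones. The B clones of mice 27, 29, 31, 33 and 34 held 69.3, 108, 137, 202 and 157 CPM, and the bystander T cells of the same nodules 18.1, 15.7, 25.5, 21.0 and 23.2 CPM. The groups did not overlap, and every B clone was above the T cells around it. The log2 ratio was 2.72 ± 0.26 (SE, n = 5; edgeR adjusted p = 0.00065), and it passed under all 13 alternatives. Myeloid cells exceeded the B clones by 1.49 ± 0.39 on the log2 scale (edgeR adjusted p = 0.018), in 4 of 5 mice. The exception was mouse 29, whose myeloid cells were mostly neutrophils, at 98.1 CPM beside 108 CPM in its B clone. That call was lost without mouse 27 and with cells assigned by marker UMIs, where the adjusted p reached 0.091.

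Within the myeloid cells, Cd86 ranged over macrophage/monocyte cells from 150 CPM in mouse 29 through a median of 380 CPM to 1641 CPM in mouse 30. Dendritic cells held 1287, 1222, 606 and 913 CPM in mice 27, 30, 31 and 33. Neutrophils stayed at 18.7 to 42.7 CPM in 5 mice, below the macrophage/monocyte cells of every mouse. Dendritic cells did not differ from macrophage/monocyte cells by more than the spread between mice (log2 0.50 ± 0.42, SE, n = 4; edgeR adjusted p = 0.58), and the ranges of both groups overlapped. That comparison called 0 of 5 tested genes, where 4.65% of all genes were called (1.68% higher and 2.97% lower), with 945 of 5013 genes at an unadjusted p under 0.05.

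The 2 T clones stood apart from each other in Cd86. The T clone of mouse 32 held 136 CPM, as much as a B clone, whereas that of mouse 30 held 4.24 CPM, from 23 UMIs in 2107 cells. The bystander T cells of the same nodules held 33.3 and 8.28 CPM, so the clone was above its bystanders in mouse 32 and below them in mouse 30, with no call in edgeR (log2 0.89 ± 0.74, SE, n = 2; adjusted p = 0.85). In mouse 32, where 1018 of 1140 myeloid cells were neutrophils, Cd86 in the T clone was 243% of the level of its myeloid cells, while Lyz2, Fcer1g and Tyrobp together were at 3.99% of theirs. The clone, at 136 CPM, was below the 287 CPM of the macrophage/monocyte cells of that nodule. In mouse 30, the same ratios were 1.02% and 1.07%, so Cd86 was there at the level of the myeloid transcripts found in the T clone. Thinned to 1000 UMIs per cell, 12.8% of the clone cells of mouse 32 would hold a Cd86 UMI (35.8% unthinned, median depth 3805), beside 0.40% of the erythroid cells of that nodule (2.84% unthinned, median depth 16182.5).

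Cd80, the B7 ligand that activated cells carry, was found in B, T and myeloid cells and did not separate B clones from T cells. The B clones of mice 27, 29, 31, 33 and 34 held 75.1, 34.6, 67.1, 100.9 and 12.5 CPM, and their bystander T cells 63.7, 96.2, 82.0, 44.2 and 21.0 CPM. The clone was above the bystander T cells in 2 of 5 mice, and the groups overlapped over most of their range. The log2 ratio was -0.16 ± 0.38 (SE, n = 5; edgeR adjusted p = 0.78), and no alternative called it.

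The T clones were the highest lymphocytes for Cd80. They held 141 CPM in mouse 30 and 206 CPM in mouse 32, above each of the 7 bystander T populations (21.0 to 96.2 CPM) and each of the 5 B clones. Neither difference passed edgeR's test (against bystander T cells log2 1.06 ± 0.24, SE, n = 2, adjusted p = 0.32; B clone over T clone log2 -1.24 ± 0.71, adjusted p = 0.31). With no filter on low counts the first one passed, at an adjusted p of 0.032.

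Among myeloid cells, Cd80 was highest in dendritic cells and in some neutrophils. Dendritic cells held 202, 258, 173 and 178 CPM in mice 27, 30, 31 and 33, above the macrophage/monocyte cells of the same nodule in 4 of 4 mice (91.9, 211, 75.2 and 59.3 CPM). This did not pass the test (log2 0.92 ± 0.33, SE, n = 4; edgeR adjusted p = 0.16), it did without mouse 30 (adjusted p = 0.035), and with cells assigned by marker UMIs the sign turned (log2 -0.51). Neutrophils held 449 CPM in mouse 29, 320 in mouse 31 and 135 in mouse 34, against 46.0 and 19.6 CPM in mice 30 and 32. The values of mice 31 and 34 rest on 22 and 37 cells. The mice held different clusters of neutrophils: those of mouse 29 were led by Cxcl2, Retnlg, S100a8 and S100a9, and those of mouse 32 by Camp, Elane, Mpo and Ngp, genes of neutrophil precursors, among others. Cd80 did not follow these genes throughout. In mouse 30, a cluster of 555 cells led by S100a8, S100a9, Cxcl2 and Retnlg held 71.2 CPM. In mouse 29, a cluster with Ngp and Camp among its leading genes held 312 CPM. The part of these clusters in the Cd80 values was not tested. The order of populations by mean Cd80 was dendritic cells (202 ± 39.0 CPM, SD, n = 4), neutrophils (194 ± 185, n = 5), T clones (173 ± 46.3, n = 2), macrophage/monocyte cells (83.8 ± 58.9, n = 7), bystander T cells (65.7 ± 26.9, n = 7), B clones (58.0 ± 34.8, n = 5) and B cells outside the clone (36.4 ± 17.01, n = 4), and each neighbor in that order overlapped with the next.

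Cd80 and Cd86 transcripts were found together in single cells of clones and of macrophage/monocyte and dendritic cells. Both were detected in 17.7%, 12.7%, 32.8%, 44.8% and 9.18% of the B clone cells of mice 27, 29, 31, 33 and 34, in 23.0% of the T clone cells of mouse 32 and in 0.237% of those of mouse 30. In bystander T cells the share was 0.256% to 2.98%, at a lower depth per cell. These shares depend on depth and on how often each gene was detected alone, and were not tested.

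Levels also differed inside a clone. In mouse 33, the larger cluster of the B clone (882 cells) held 112 CPM of Cd80 and 222 CPM of Cd86, and the smaller one (160 cells) held 5.53 and 33.2 CPM. In mouse 31, the 3 clusters held 75.1, 44.6 and 18.8 CPM of Cd80 and 160, 63.4 and 16.9 CPM of Cd86, so both genes kept the same order. That order was not particular to them: Cd28, Cd40, Cd274, Pdcd1lg2, Icosl and Tnfrsf4 kept it too, and Ctla4 and Tnfsf4 did not. In mouse 34 the 2 clusters were close, at 13.6 and 11.1 CPM of Cd80 and 171 and 135 CPM of Cd86. In mouse 32, the 5 T cell clusters of the clone all held Cd86, at 122 to 222 CPM, and in mouse 30 the 4 clusters held 0 to 6.70 CPM. Of the clone cells of mouse 32, 225 fell into a cluster in which 3 mast/basophil and 3 erythroid markers counted and whose leading genes, Car1, Car2, Rhag and Ermap among them, are not mast cell genes, and 63 fell into an erythroid cluster. Both held less of both genes than the T cell clusters, at 63.0 and 69.8 CPM of Cd80 and 45.0 and 31.1 CPM of Cd86.

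**Figure D3:**
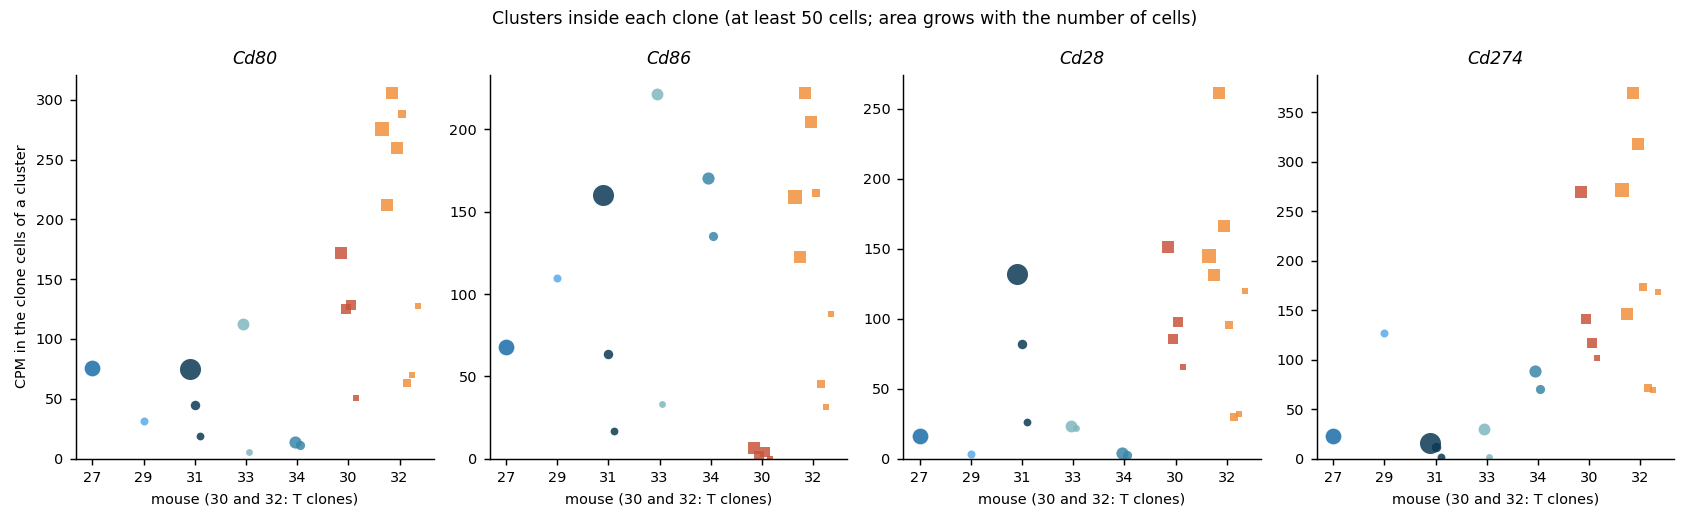
CPM of 4 genes in the clone cells of each cluster with at least 50 clone cells, by mouse; circles are B clones, squares are T clones and the area grows with the number of cells. In the T clone of mouse 32, Cd80 spans 63.0 to 306 CPM over its clusters, and in the B clone of mouse 31, Cd28 spans 25.8 to 132 CPM.

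Cd40, the receptor through which B cells, macrophages and dendritic cells receive CD40L from T cells, followed the antigen-presenting lineages. B clones of mice 27, 29, 31, 33 and 34 held 52.0, 32.3, 18.9, 89.1 and 82.9 CPM, and their bystander T cells 4.30, 2.88, 10.9, 3.12 and 6.27 CPM. No bystander T population reached the lowest B clone. The log2 ratio was 3.42 ± 0.58 (SE, n = 5; edgeR adjusted p = 0.0062). The T clones held 0.922 and 4.40 CPM, and B clones exceeded them by 4.56 ± 0.99 on the log2 scale (edgeR adjusted p = 0.040), a call lost when any of mice 27, 30, 32, 33 or 34 was left out, with an adjusted p of up to 0.19.

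Myeloid cells and B clones did not differ measurably in Cd40. Myeloid cells of the same 5 mice held 51.2, 17.7, 35.2, 85.2 and 43.1 CPM, and the log2 ratio was -0.01 ± 0.30 (SE, n = 5; edgeR adjusted p = 0.97), with a sign that varied between alternatives. Macrophage/monocyte cells held 15.6 to 89.1 CPM and dendritic cells 50.7 to 80.1 CPM, whereas neutrophils held 0 to 1.77 CPM. Myeloid cells exceeded bystander T cells in 7 of 7 mice (log2 3.39 ± 0.38, SE; edgeR adjusted p = 3.5e-05).

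Icosl, the ligand of ICOS, was scarce in every population. B clones held 17.3 CPM in mouse 27, 35.5 CPM in mouse 34 and 3.08, 2.76 and 0.963 CPM in mice 29, 31 and 33, and bystander T cells held 0.332 to 3.12 CPM. Only the clones of mice 27 and 34 stood clear of the T cells. The B clone was higher in 5 of 5 mice (log2 2.00 ± 0.53, SE; edgeR adjusted p = 0.031), but the call was lost in 6 of 13 alternatives, among them leaving out mouse 27, 33 or 34 and dropping the mouse block, with an adjusted p of up to 0.094. Macrophage/monocyte cells held 0 to 4.83 CPM except in mouse 30, with 15.6 CPM from 7 UMIs. Means were 13.6 CPM in B cells outside the clone, 11.9 in B clones, 10.1 in dendritic cells and 8.36 in neutrophils, with overlapping ranges. Myeloid cells were at 107% and 136% of the B clone in mice 29 and 33, and their comparison with B clones was not called (edgeR adjusted p = 0.39).

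Tnfsf4, which encodes OX40L, was found in bystander T cells and hardly in myeloid cells. Bystander T cells of mice 27, 33 and 34 held 158, 43.4 and 34.8 CPM, and those of mice 29, 30, 31 and 32 held 6.08, 2.07, 6.08 and 4.16 CPM. Mouse 27 stood far above the others. The B clones held 1.82, 0, 0.268, 14.0 and 0.804 CPM in mice 27, 29, 31, 33 and 34, and only that of mouse 33 exceeded 2 CPM. The 0 of mouse 29 allows up to 0.770 CPM.

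The B clones were lower than the bystander T cells in 5 of 5 mice (log2 -4.63 ± 0.87, SE; edgeR adjusted p = 0.0092). Without the mouse block this call was lost (adjusted p = 0.073). Among T clones, that of mouse 30 held 40.0 CPM beside 2.07 CPM in its bystander T cells, and that of mouse 32 held 1.37 CPM beside 4.16 CPM. These ratios pointed in opposite directions. Macrophage/monocyte cells held at most 1.41 CPM, and the 9 UMIs that made up 28.5 CPM in the dendritic cells of mouse 33 were the highest myeloid value.

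Cd28, the receptor of CD80 and CD86 on T cells, was uniform in bystander T cells and present in some B clones. Bystander T cells of mice 27, 29, 30, 31, 32, 33 and 34 held 224, 268, 241, 304, 190, 224 and 199 CPM. The T clones held 111 and 130 CPM, below every bystander T population, with log2 -0.96 ± 0.27 (SE, n = 2; edgeR adjusted p = 0.41). In mouse 32, the T cell clusters of the clone held 95.8 to 261 CPM. Its cells in the clusters with erythroid markers held 29.6 and 32.1 CPM, which lowers the level of that clone. The B clones of mice 27, 29, 31, 33 and 34 held 16.7, 3.33, 118, 26.1 and 3.33 CPM, and all were below the bystander T cells of their nodule (log2 -3.98 ± 0.81, SE, n = 5; edgeR adjusted p = 0.012).

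The B clone of mouse 31 reached the level of a T clone. Its 118 CPM (95% Poisson interval 115 to 121, which covers counting error only) came from 5746 UMIs and was 38.9% of the level in bystander T cells, while the Cd3 genes (Cd3d, Cd3e and Cd3g) were at 0.219% of theirs. The B clones of mice 27 and 33 had Cd28 at 7.45% and 11.6% of the T cell level beside 0.182% and 1.204% for the Cd3 genes. In mice 29 and 34 the shares were alike, at 1.25% beside 1.61% and 1.67% beside 1.69%. In mouse 31, Cd28 was detected in 63.1% of clone cells (11.3% thinned to 1000 UMIs, median depth 11199.5), and in 4.76% of the 21 erythroid cells (0.528% thinned, median depth 2215). All 3 clusters of that clone held Cd28, at 132, 82.0 and 25.8 CPM.

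Ctla4, the inhibitory receptor of CD80 and CD86, was a T cell gene with a low level in B clones. Bystander T cells of mice 27, 29, 30, 31, 32, 33 and 34 held 408, 276, 348, 318, 371, 478 and 371 CPM and the T clones 258 and 263 CPM. T clones lay just below the lowest bystander population (log2 -0.58 ± 0.24, SE, n = 2; edgeR adjusted p = 0.63). Bystander T cells had to lie in a T cell cluster, whereas clone cells did not. In mouse 32, the T cell clusters of the clone held 183 to 529 CPM. Its 225 and 63 cells in clusters with erythroid markers held 55.0 and 85.8 CPM, which lowers the level of that clone. B clones of mice 27, 29, 31, 33 and 34 held 18.4, 11.5, 6.38, 23.1 and 18.9 CPM, far from the T cells (log2 -4.61 ± 0.27, SE, n = 5; edgeR adjusted p = 0.00035), and were also lower than the T clones (log2 -3.75 ± 0.46, SE; edgeR adjusted p = 0.0087).

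In the B clones Ctla4 was at 2.01% to 5.09% of the level in bystander T cells, above the 0.182% to 1.69% of the Cd3 genes in each of the 5 mice. B clones exceeded myeloid cells in 5 of 5 mice (myeloid over B clone log2 -1.51 ± 0.46, SE; edgeR adjusted p = 0.031). The call was lost in 5 of 14 alternatives, with an adjusted p of up to 0.11. These were removing cells that co-expressed Cd3 and B cell genes, assigning cells by marker UMIs, and leaving out mouse 27, 33 or 34. B cells outside the clone held 21.6, 7.22, 103 and 166 CPM in mice 29, 31, 33 and 34. The clone was lower in 4 of 4 (log2 -2.10 ± 0.46, SE; edgeR adjusted p = 0.14), with 24 to 41 such cells per mouse.

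Tnfrsf4, which encodes the OX40 receptor of activated T cells, was high in T cells and near 0 in B clones and myeloid cells. Bystander T cells of mice 27, 29, 30, 31, 32, 33 and 34 held 331, 129, 203, 304, 248, 138 and 176 CPM, the T clones 167 and 154 CPM, and the B clones 0.556 to 2.76 CPM. B clones were below bystander T cells (log2 -7.04 ± 0.71, SE, n = 5; edgeR adjusted p = 0.00075) and below T clones (log2 -6.30 ± 0.60, SE; edgeR adjusted p = 0.0051). The shares of the T cell level in B clones, 0.183% to 1.66%, were those of the Cd3 genes within a factor of 1.38. B cells outside the clone had 0 UMIs in 4 mice, which allows levels of up to 11.8 to 21.7 CPM per mouse.

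**Figure D4:**
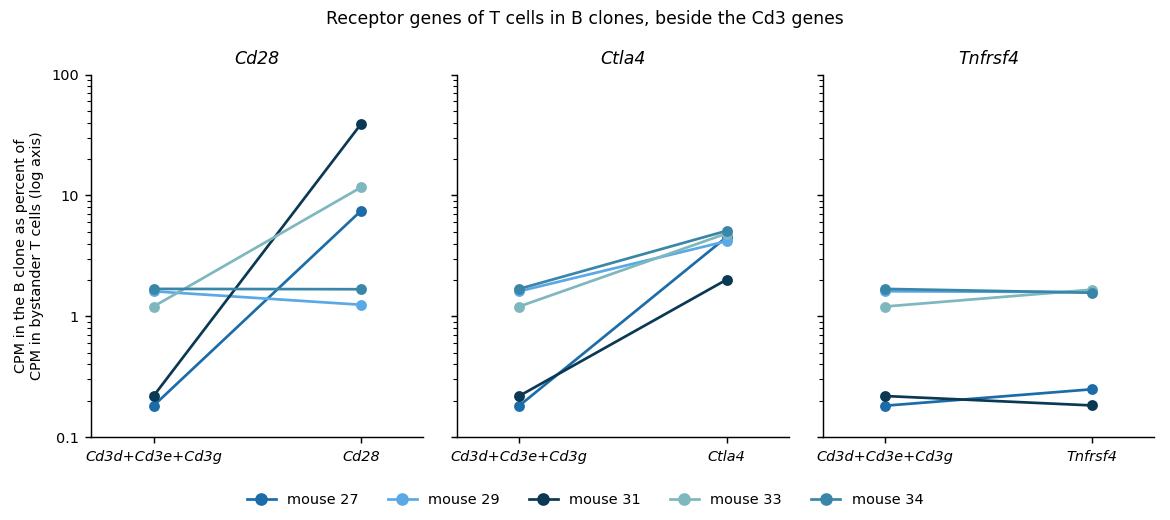
CPM in the B clone as a percent of the CPM in bystander T cells of the same nodule (log axis), for the sum of Cd3d, Cd3e and Cd3g and for Cd28, Ctla4 or Tnfrsf4, in 5 mice. Lines rise for Cd28 in mice 27, 31 and 33 and for Ctla4 in all 5 mice, and stay near level for Tnfrsf4.

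Bystander T cells were divided by the UMIs they held, into cells with a Foxp3 UMI, the transcription factor of regulatory T cells, and, among the rest, cells with Cd4 or with Cd8a or Cd8b1 UMIs. Cells of low depth fall out of such groups, so the values describe those in which a UMI was seen. Foxp3+ cells, 28 to 78 per mouse in mice 29, 31, 32 and 34, held 257, 660, 439 and 533 CPM of Tnfrsf4, and the other bystander T cells of those mice 127, 283, 236 and 160 CPM. Tnfrsf4 rose in 4 of 4 mice (log2 1.17 ± 0.18, SE; edgeR adjusted p = 0.00059), and it was the only gene called out of 7 tested, where 0.62% of all genes were higher and 1.24% were called in either direction. Without the mouse block the call was lost (adjusted p = 0.91). Ctla4 was at 354, 253, 491 and 742 CPM in Foxp3+ cells, with log2 0.36 ± 0.20 (SE; edgeR adjusted p = 0.53). Tnfsf4 had 0 UMIs in the Foxp3+ cells of all 4 mice, which allows up to 21.6 to 52.7 CPM per mouse.

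Tnfrsf4 was higher in the cells with Cd4 than in those with Cd8a or Cd8b1 UMIs in 7 of 7 mice, at 156 to 421 CPM against 32.1 to 172 CPM. Ctla4 was higher in the Cd4 group in 7 of 7 mice as well, at 339 to 570 CPM against 144 to 460 CPM. Tnfsf4 showed the opposite order in 6 of 7 mice: cells with Cd8a or Cd8b1 UMIs held 267 CPM in mouse 27 and 58.7 CPM in mouse 34, and the Cd4 group 121 and 8.45 CPM. The exception was mouse 30, where 23 cells with Cd8a or Cd8b1 UMIs had none of Tnfsf4. These orders are descriptions without a test.

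**Figure D5:**
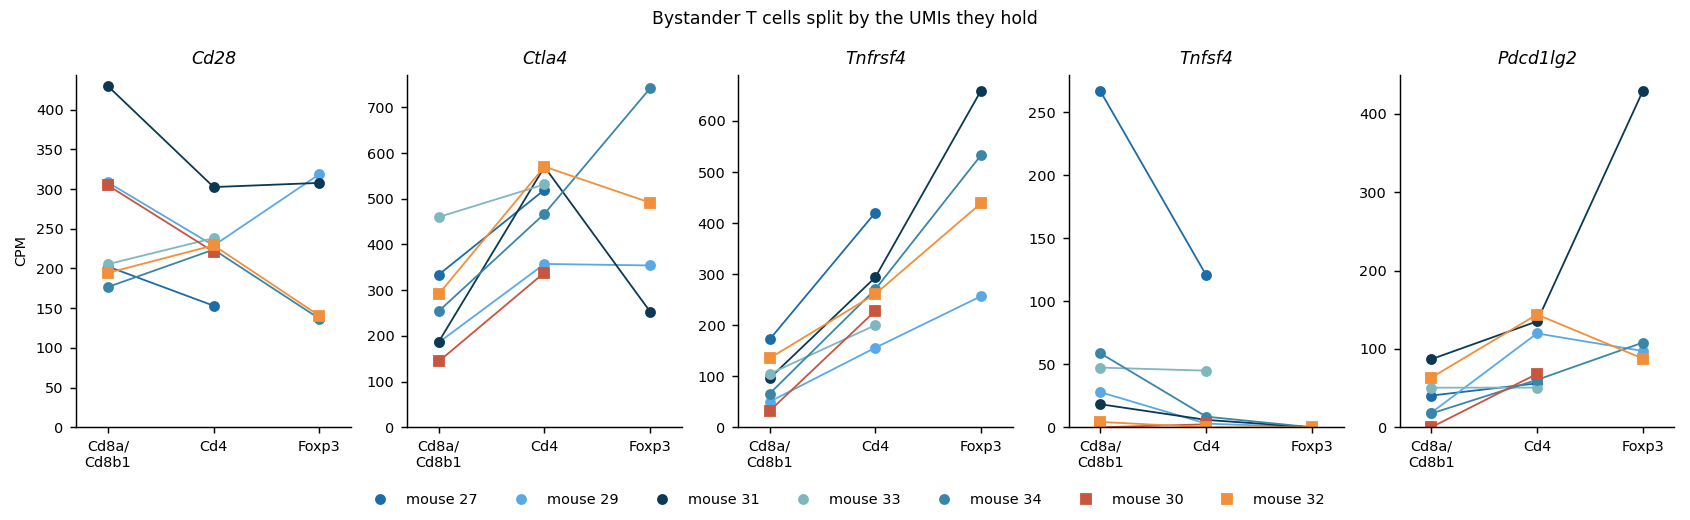
CPM of 5 genes in bystander T cells with Cd8a or Cd8b1 UMIs, with Cd4 UMIs and with a Foxp3 UMI, with 1 line per mouse (circles, BCR mice; squares, TCR mice). Tnfrsf4 climbs along the 3 groups in all 4 mice that had enough Foxp3+ cells, and Tnfsf4 is at 0 in Foxp3+ cells.

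Cd274, which encodes the PD-1 ligand PD-L1, was on average lowest in B clones and highest in neutrophils, with overlap between neighboring populations. Neutrophils of mice 29, 30, 31, 32 and 34 held 830, 308, 726, 113 and 1373 CPM, dendritic cells 285 to 524 CPM and macrophage/monocyte cells 131 to 583 CPM. Bystander T cells of mice 27, 29, 30, 31, 32, 33 and 34 held 110, 236, 266, 241, 331, 103 and 90.9 CPM and the T clones 175 and 212 CPM. B clones of mice 27, 29, 31, 33 and 34 held 22.5, 125, 14.0, 28.5 and 81.8 CPM, with those of mice 29 and 34 well above the other 3.

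Myeloid cells exceeded the B clone in Cd274 in 5 of 5 mice (log2 3.40 ± 0.41, SE; edgeR adjusted p = 0.00066), and all 14 alternatives kept that call. Bystander T cells were above the B clone in 5 of 5 mice too, but this stood just outside the threshold (B clone over T cells log2 -1.77 ± 0.56, SE; edgeR adjusted p = 0.052), and DESeq2, no filter on low counts and leaving out mouse 34 brought it inside. Myeloid cells against bystander T cells gave log2 1.17 ± 0.46 (SE, n = 7; edgeR adjusted p = 0.064), higher in 5 of 7 mice, and 6 of 14 alternatives called it. In the TCR mice the clone was below its bystander T cells in both (log2 -0.74 ± 0.24, SE; edgeR adjusted p = 0.49). In mouse 32, the T cell clusters of the clone held 147 to 370 CPM, and its cells in the clusters with erythroid markers 71.8 and 69.8 CPM.

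Pdcd1lg2, which encodes PD-L2, was higher in bystander T cells than in the macrophage/monocyte cells of the same nodules in 7 of 7 mice. T clones held 109 and 102 CPM and bystander T cells of mice 27, 29, 30, 31, 32, 33 and 34 held 55.1, 101.4, 67.3, 162, 100.9, 51.6 and 47.0 CPM. B clones of mice 27, 29, 31, 33 and 34 held 0.825, 10.3, 6.65, 4.58 and 12.2 CPM. The B clones did not reach any T cell population, and differed from bystander T cells by log2 -3.74 ± 0.61 (SE, n = 5; edgeR adjusted p = 0.0050) and from T clones by log2 -3.67 ± 0.74 (SE; edgeR adjusted p = 0.032). The latter call was lost without mouse 30, 31, 32, 33 or 34, with an adjusted p of up to 0.13.

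Myeloid cells also exceeded B clones in Pdcd1lg2 in 5 of 5 mice (log2 2.51 ± 0.46, SE; edgeR adjusted p = 0.0041). With macrophage/monocyte cells alone as myeloid cells the adjusted p was 0.060. Macrophage/monocyte cells held 7.24 to 41.0 CPM and neutrophils 7.61 to 149 CPM, and the dendritic cells of mouse 30 held 180 CPM from 63 UMIs while those of mice 27, 31 and 33 held 0, 8.03 and 28.5 CPM. Bystander T cells stood above myeloid cells in 6 of 7 mice (myeloid over T cells log2 -1.19 ± 0.44, SE; edgeR adjusted p = 0.051), and 6 of 14 alternatives called this lower.

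B clones were also set against the few B cells with another BCR, 24 to 41 per mouse in mice 29, 31, 33 and 34. None of 7 tested genes was called by edgeR, where 0.0217% of all genes were, and 986 of 9229 genes had an unadjusted p under 0.05. DESeq2 called 3 of the 7 lower in the clone, Cd86, Ctla4 and Cd274, and edgeR itself called Ctla4 and Cd274 with no filter on low counts and Ctla4 without mouse 31. The other B cells held more plasma cell transcripts, with 6 markers summing to 1125 to 15823 CPM against 304 to 1916 CPM in the B clones, and their part in these differences was not tested. Cd86 was at 108, 137, 202 and 157 CPM in the clones and 194, 354, 297 and 241 CPM in the other B cells, lower in 4 of 4 mice (log2 -0.91 ± 0.25, SE; edgeR adjusted p = 0.25). Cd274 was lower in the clone in 4 of 4 mice too (log2 -1.65 ± 0.39, SE; edgeR adjusted p = 0.17), and Cd80 had log2 0.24 ± 0.44 (SE; edgeR adjusted p = 0.88).

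The bystander T cells of the TCR and the BCR mice, 2 against 5, were compared to see whether the kind of clone went with the costimulatory genes of the T cells beside it. None of 9 tested genes was called, and edgeR called 0 of 10243 genes in all (0.0%), with 329 at an unadjusted p under 0.05, while DESeq2 called 4 genes. Cd28 and Ctla4 were close, with log2 -0.21 ± 0.27 and -0.09 ± 0.31 (SE). Cd274 was at 266 and 331 CPM in the TCR mice and 90.9 to 241 CPM in the BCR mice, at log2 0.91 ± 0.43 (SE; edgeR adjusted p = 0.96). Tnfsf4 and Cd40 pointed the other way, with log2 -4.60 to -2.90 and -2.86 to -2.32 over the alternatives (edgeR adjusted p = 0.96 for each).

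Other genes of the same pathways were tested in the same fits. Of 28 such genes, 25 were tested between B clones and bystander T cells, and 0 were higher and 16 lower, where 12.3% and 15.0% of all genes were. The largest differences were in Cd27 (log2 -7.25 ± 0.71, SE), the receptor of CD70, Icos (-7.05 ± 0.79), Tnfsf14 (-6.96 ± 0.63), the inhibitory receptor Lag3 (-6.75 ± 0.77) and Tnfrsf18 (-6.74 ± 0.56), which encodes GITR. Tnfsf14 had 6 UMIs in the 5 B clones together and none in 3 of them, so the size of its ratio is uncertain. Between myeloid cells and B clones, 8 of 22 were higher and 1 lower, where 20.8% and 23.9% of all genes were, and 13 were not called. Cd276 (log2 6.19 ± 0.96, SE), Havcr2 (5.87 ± 0.61), Vsir (5.77 ± 0.44) and Nectin2 (4.02 ± 0.92) were higher in myeloid cells, Lag3 was higher by 3.19 ± 1.07, and the B7 family member Vtcn1 was the lower one (-3.06 ± 0.80). Cd276 had 6 UMIs in all B clones together and a mean of 4.29 CPM in myeloid cells, so the size of its ratio is uncertain too.

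Between myeloid and bystander T cells, 1 of 22 of these genes was higher (Vsir, log2 1.40 ± 0.26, SE) and 11 lower, where 19.4% and 19.2% of all genes were. The largest were Cd40lg (-5.92 ± 0.50), the ligand of CD40, Tigit (-5.82 ± 0.39), Cd27 (-5.65 ± 0.37), Pdcd1 (-5.45 ± 0.34), which encodes PD-1, and Tnfrsf9 (-5.27 ± 0.41). B clones against T clones gave 0 of 27 higher and 10 lower (4.69% of all genes), led by Tnfsf14 (-9.02 ± 0.90, on 6 UMIs in B clones) and Cd40lg (-8.29 ± 0.74). T clones against bystander T cells gave 0 of 23 (0.125% of all genes). In Foxp3+ cells 2 of 20 rose (0.62% of all genes), Tnfrsf9 (log2 1.32 ± 0.19, SE) and Tnfrsf18 (1.06 ± 0.25), both TNF receptor family members, and 0 fell. Dendritic over macrophage/monocyte cells gave 2 of 10 higher (1.68% of all genes), Btla (6.38 ± 0.48) and the adaptor Traf1 (1.65 ± 0.29).

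Genes whose levels followed the same pattern were looked up over the 21 profiles of clones, bystander T cells and myeloid cells, by Pearson's r of log2(CPM + 1) among 12265 genes. The profiles share libraries, so r is a description. The genes most like Ctla4 were Lck (0.99), Apol7e (0.97) and A930024E05Rik (0.96), those most like Cd40 were the MHC class II genes H2-Eb1, H2-Aa and H2-Ab1 (0.93, 0.93 and 0.92), and those most like Cd86 were Ifi30 (0.89), Syk (0.87) and H2-DMb1 (0.87). Cd80 had no close companion, with Tmbim1 (0.77), Zmiz1 (0.68) and Rnf128 (0.64) at the top. Its r with Cd86 was 0.07, whereas Cd86 and Cd40 had an r of 0.79 and Ctla4 and Tnfrsf4 one of 0.95.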

How the data were processed

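Nodules of 7 mice were profiled by single-cell RNA-seq and V(D)J-seq. The authors deposited raw UMI counts per gene and cell, without depth normalization, and V(D)J contig tables with clonotype numbers. Builds GRCm38 and mm10 stand in the submitters' processing notes. The aligner and annotation are not given in the sources used here. For RNA libraries the study's methods give a 3′ kit, whereas the labels of these samples give a 5′ one, so the end of the transcripts counted is unsettled. The cell limits of the study's methods (at least 201 UMIs and 101 genes, at most 10% mitochondrial UMIs) kept 75503 of 77442 cells. Cells were clustered with scanpy 1.11.5 and leidenalg 0.10.2 (2000 variable genes, 30 components, resolution 1, then 2 for T and myeloid cells; 76 clusters) without the 10 genes and 28 other pathway genes, and named when 3 fixed markers counted. No doublets were removed. A clone was the cells with the commonest heavy (or TCR beta) chain of a mouse, by V gene, J gene and CDR3 sequence, or with the light (or alpha) chain most often found with it. Names were rebuilt here from the counts, so they can differ from the study's. UMIs were summed per mouse and population of at least 20 cells and tested with edgeR 4.0.16 (R 4.3.3; quasi-likelihood, TMM, filterByExpr, Benjamini-Hochberg, threshold 0.05). The mouse was a block where both populations came from the same nodule, since they share a library. In the secondary tumor and in the bone marrow chimera, cells of a nodule can derive from different animals and genotypes. The part of this in the paired comparisons was not tested. DESeq2 1.42.0 was an alternative, and all others are named in the closing section. The fits were tested on simulated data with known changes. Intervals are exact Poisson at 95%, and a count of 0 is limited by 3 UMIs. Both cover counting error only. Per-cell counts were thinned to 1000 UMIs to compare shares. Named genes were the 10 genes in every comparison, at most the 5 other pathway genes with the largest differences, and the 3 most similar genes for Cd80, Cd86, Ctla4 and Cd40. The 10 genes, the lists and the tests were chosen with earlier results of these data known. Mice are the replicates, and p-values measure the spread between them.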

Additional observations from a re-analysis of the deposited data

Results flagged for a closer look

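A value far from the others of its group was sought in 59 groups of 4 to 7 mice by Dixon's criterion, and 11 were found. Chance gives about 1 in 20 groups only where values are normally spread. CPM were not transformed for this, and each of the 11 was the highest of its group, so their number cannot be set against that rate. In the macrophage/monocyte cells of mouse 30, Cd80 stood at 211 CPM (next mouse 91.9), Cd86 at 1641 CPM (next 623) and Icosl at 15.6 CPM from 7 UMIs (next 4.83). Of these 113 cells, 109 lay in a cluster drawn to 90.8% from mouse 30, and Lyz2, Fcer1g and Tyrobp summed to 1763 CPM in them against 7287 to 20291 CPM in the other mice. The part of that cluster in these values was not tested. Cd28 in the B clone of mouse 31 stood at 118 CPM, with the next clone at 26.1 CPM. Tnfsf4 stood apart in the bystander T cells of mouse 27 (158 CPM, next 43.4), in the B clone of mouse 33 (14.0 CPM from 233 UMIs, next 1.82) and in the dendritic cells of mouse 33 (28.5 CPM from 9 UMIs, next 4.01). Pdcd1lg2 in the dendritic cells of mouse 30 stood at 180 CPM from 63 UMIs, with the next mouse at 28.5 CPM. The other 3 rested on few UMIs: Ctla4 in neutrophils of mouse 30 (18.2 CPM from 38 UMIs), Icosl in B cells outside the clone of mouse 31 (50.5 CPM from 7 UMIs) and Cd40 in neutrophils of mouse 29 (1.77 CPM from 8 UMIs).

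Pdcd1lg2 was lower in the clone than in bystander T cells in each of the 5 BCR mice (log2 -3.74 in edgeR). In the TCR mice the clone was higher in mouse 30 (log2 0.68) and nearly level with its bystanders in mouse 32 (log2 0.011). EdgeR gave log2 0.22 for both TCR mice and did not call it (adjusted p = 0.91). The difference between these ratios was not tested.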

How the results depend on the processing

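Over 887 alternative values of the 10 genes, 774 kept direction and side of the threshold, 31 passed it newly, 26 lost it and 56, none of a called gene, changed sign. Most were refits. Those of T clones with 1 mouse left out were plain ratios without a fit, judged by direction alone. The cause was not tested except where fewer mice or genes entered. Cell numbers limit the comparisons with B cells outside the clone, dendritic and Foxp3+ cells, and mice those of T clones, which with 1 mouse left out leave values without a test.

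Genes called in T clones against bystander T cells numbered 152 with DESeq2, 393 with no filter (1 of the 10 genes), 54 with cells by marker UMIs, 7 with the largest clonotype, and 0 without the block, without co-expressing cells, without high Scrublet scores and with clone cells of their class only. B against T clones gave 3038 with DESeq2, 1640 without high Scrublet scores and 1914 with clone cells of their class only. Myeloid cells against B clones gave 2 of the 10 genes by marker UMIs, and against bystander T cells 6110 genes and 8 of the 10 with no filter. Bystander T cells of TCR against BCR mice gave 4 with DESeq2, and 1 each with no filter and by marker UMIs. B clones against other B cells gave 128 (3 of the 10) with DESeq2, 117 (2) with no filter, 11 without high Scrublet scores, 8 with the largest clonotype and 7 with clone cells of their class only. Dendritic against macrophage/monocyte cells gave 842 with no filter, 0 by marker UMIs and 30 without high Scrublet scores. Foxp3+ T cells gave 272 with no filter and 158 (2 of the 10) by marker UMIs.

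Without the replicate block, which pairs populations of the same nodule, the counts were 0 for B clones against other B cells, 19 for dendritic cells and 14 for Foxp3+ cells (0 of the 10). Icosl, Tnfsf4 and, in Foxp3+ cells, Tnfrsf4 lost their calls without it, Cd28 (myeloid against B clone) and Cd274 (myeloid against bystander T cells) gained one, and no other of the 10 genes changed its call.

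Leaving out 1 mouse at a time gave 2216 to 2911 genes (7 to 8 of the 10) for B clones against bystander T cells, 179 to 1472 (2 to 4) for B against T clones, 4008 to 4727 (2 to 5) for myeloid cells against B clones, 3009 to 3845 (5 to 7) for myeloid against bystander T cells, 0 to 6 (0) for TCR against BCR mice, 7 to 19 (0 to 1) for other B cells, 32 to 367 (0 to 1) for dendritic cells and 36 to 111 (1) for Foxp3+ cells. The lowest counts for B against T clones came without mouse 30 and 32 (179 and 273), for dendritic cells without mouse 33 (32), and for Foxp3+ cells without mouse 31 (36).

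Signs changed as follows, as log2 ratios of genes that were not called. In B clones against bystander T cells, Cd80 was 0.10 with no filter, 0.032 without the block and -0.54 to 0.17 leaving out mice. In T clones, Tnfsf4 was -0.044 by marker UMIs and -1.12 to 3.74 by mouse, and Cd86 -0.82 to 2.00. In B against T clones, Tnfsf4 was -4.48 to 1.73. In myeloid cells against B clones, Cd40 was 0.10 with DESeq2, 0.0049 with clone cells of their class, 0.18 with macrophage/monocyte cells only and -0.22 to 0.19 by mouse, and Tnfrsf4 -0.32 to 0.88. In TCR against BCR mice, marker UMIs gave Cd80 -0.074, Cd28 0.15 and Tnfrsf4 -0.20, DESeq2 gave Cd86 0.024 and Pdcd1lg2 0.027, high Scrublet scores removed gave Cd86 0.15 and Pdcd1lg2 0.0099, co-expressing cells removed gave Cd86 0.016 and no filter gave Tnfrsf4 -0.0071. By mouse they ran from -0.062 to 0.56 (Cd80), -1.36 to 0.67 (Cd86), -0.16 to 0.062 (Ctla4), -0.13 to 0.28 (Tnfrsf4) and -0.35 to 0.34 (Pdcd1lg2). For other B cells, Cd40 ran from -0.67 to 0.16. For dendritic cells, marker UMIs gave Cd80 -0.51, Cd86 -0.41, Cd274 -1.55, Pdcd1lg2 -0.24 and Cd40 -1.47, high Scrublet scores removed gave Cd86 -0.59, DESeq2 gave Pdcd1lg2 -0.017, and Cd40 ran from -0.10 to 0.97 by mouse. For Foxp3+ cells, Cd86 was -0.22 with no filter, -0.059 without the block, -1.33 by marker UMIs and -0.37 to 0.18 by mouse, and Cd274 -0.24, -0.57 (marker UMIs) and -0.16 to 0.21. Averaged over cells rather than summed, T clone levels were 139.8 CPM for Cd28, 267.8 for Ctla4, 148.2 for Tnfrsf4 and 228.1 for Cd274.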
